A study of Mus musculus with 4 samples.

Results

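The nuclear genes for subunits of the mitochondrial respiratory chain and of ATP synthase were followed in differentiating 3T3-L1 cells on 4 Affymetrix arrays. They were taken by gene symbol: names beginning with Ndufa, Ndufb, Ndufc, Ndufs or Ndufv for complex I, Sdhb, Sdhc and Sdhd for complex II, Uqcr and Cyc1 for complex III, Cox4i to Cox8 for complex IV, and Atp5 for ATP synthase, without Ndufaf assembly factors and pseudogenes. This gave 82 of the 18194 genes named on the array, namely 36 of complex I, 3 of complex II, 9 of complex III, 17 of complex IV and 17 of ATP synthase. Where a gene had several probe sets, the one whose log2 signal averaged highest was used. Of the 82, 76 passed a filter on low signal (a mean signal of at least 50.9, the median of all probe sets), as did 10788 of all genes, and counts below refer to these 76.

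3T3-L1 is a mouse fibroblast line that becomes fat cells under insulin, dexamethasone and isobutylmethylxanthine. All 4 cultures received these inducers, in medium with 25 mM glucose and 10% serum, and were collected 24 h after induction. The first carried siRNA against Aof2, the older name of Kdm1a, which encodes the FAD-dependent histone demethylase LSD1. The next carried siRNA against Rfk, which encodes riboflavin kinase, the enzyme that makes FMN. A further culture had tranylcypromine (dose not given in the sources used here), which inhibits monoamine oxidases and LSD1, in its induction medium. The reference culture carried the control siRNA siGL3, and siRNAs were given 24 h before induction. No siRNA is mentioned for the tranylcypromine culture, so the drug and absence of transfection cannot be told apart in that comparison. Each culture is 1 array with no replicate, so no test between conditions exists, all values are single measurements, and the number of arrays limits the precision.

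The respiratory chain passes electrons from NADH and succinate through complexes I to IV to oxygen and pumps protons across the inner mitochondrial membrane, and ATP synthase uses the proton gradient to make ATP. Complexes I and II start with flavin: FMN sits in the complex I subunit Ndufv1, and FAD in Sdha, the flavoprotein of complex II. Most subunits are encoded in the nucleus and joined to a few encoded in mitochondrial DNA. Mitochondria increase as preadipocytes become adipocytes.

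The targeted genes were lower where the labels name them. Kdm1a stood at 19.5% of control with aof2 siRNA and Rfk at 27.0% with rfk siRNA. The deposited signals had been scaled to the same trimmed mean on each array. The 18 hybridisation control probe sets, which report on staining and scanning, differed from the control array by a mean log2 value of 0.08 with aof2 siRNA, 0.11 with rfk siRNA and 0.01 with tranylcypromine, and by -0.26 to 0.21 singly. The 24 poly-A control probe sets differed more with the siRNAs, by means of 0.29 with aof2 siRNA, 0.17 with rfk siRNA and -0.01 with tranylcypromine. Singly they differed by -0.25 to 0.87, and no scaling on them was tried. Of 8 white adipocyte markers 5 passed the filter, among them Fabp4, Pparg and Lpl, whereas Adipoq, a late marker, did not, and 5 of 6 preadipocyte markers passed. The summed signal of the white adipocyte markers was 6581 with aof2 siRNA, 7023 with rfk siRNA and 6079 with tranylcypromine, against 9097 in control. This sum rests on the probe sets with most signal, Lpl and Fabp4, and Fabp4 and Pparg were below control in all 3 comparisons. With aof2 siRNA and with tranylcypromine Cebpa (0.56 and 0.28) and Lipe (0.36 and 0.42) were above control, and with rfk siRNA Cebpa (0.03) and Lpl (0.01) were. Their part in the subunit values was not tested. The brown fat genes Ucp1 and Cidea were below the filter on all 4 arrays, with signals of 2.11 to 10.2. In RNA from whole cultures, fewer cells of a kind and less RNA per cell cannot be told apart.

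Subunit signals were nearly level across the 4 cultures, and the tranylcypromine culture was slightly above the others. The median log2 difference from control over the 76 subunits was 0.046 with aof2 siRNA, 0.0012 with rfk siRNA and 0.12 with tranylcypromine, that is, 1.08-fold for the drug. Over all 10788 genes the medians were -0.0041, -0.0089 and -0.016. Above control were 51 subunits with aof2 siRNA (49.3% of all genes were), 39 with rfk siRNA (48.5% of all genes) and 63 with tranylcypromine (48.0% of all genes). As a share of the 76 these are 67.1%, 51.3% and 82.9%, so the share with rfk siRNA lay near that of all genes, and the 3 comparisons share the control array. Scaling moves these values. Centred on the median or on the hybridisation controls, the aof2 siRNA median was -0.030 or -0.034, with 31 or 30 subunits above control. On the hybridisation controls the rfk siRNA median was -0.11 with 11 above control, and centred on the median the tranylcypromine median was 0.053 with 50 above control. The medians of all genes shifted by the same amounts. They were then -0.081 or -0.085 with aof2 siRNA, -0.12 with rfk siRNA and -0.078 with tranylcypromine. How many of all genes lay above control under these scalings was not counted.

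Most subunits gave bright signals, and 65 of the 76 had a mean log2 signal of at least 12. Bright genes as a class also lay somewhat above control: of the 1200 genes at that level 54.2% were above control with aof2 siRNA, 57.9% with rfk siRNA and 61.2% with tranylcypromine, with medians of 0.017, 0.027 and 0.050. The 65 bright subunits had medians of 0.056, 0.012 and 0.12, with 47, 37 and 55 above control. This comparison was added after the data were seen.

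**Figure D1:**
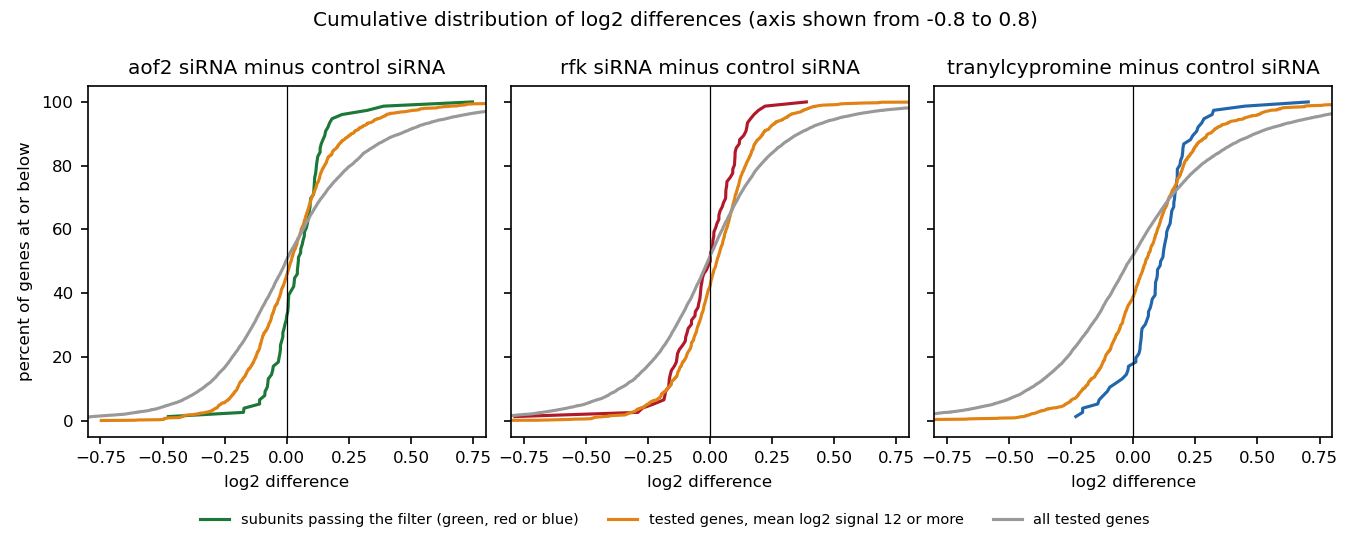
Cumulative percentage of genes (vertical axis) at or below each log2 difference from control (horizontal axis) for aof2 siRNA, rfk siRNA and tranylcypromine. The coloured line shows the 76 subunits, orange the 1200 genes with a mean log2 signal of at least 12, grey all 10788 genes. The subunit line is steeper than the grey line in each panel and lies to the right of the orange line over most of its course with tranylcypromine (medians 0.12 and 0.050).

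Large differences were few. At least 1.2-fold above control were 3 subunits with aof2 siRNA (Cox6a2, Cox7c and Atp5e, against 19.5% of all genes) and 1 with rfk siRNA (Cox7c, against 15.1%). With tranylcypromine 6 were (Cox7a1, Ndufb1, Atp5d, Ndufb11, Cox6a1 and Cox4i1, against 20.5%). At least 1.2-fold below control were 1 with aof2 siRNA (Atp5md, against 15.7%), 3 with rfk siRNA (Cox7a1, Atp5md and Ndufb3, against 16.2%) and 0 with tranylcypromine (20.1%). At 1.5-fold, Cox6a2 was higher with aof2 siRNA (6.26% of all genes were), Cox7a1 higher with tranylcypromine (7.48%) and Cox7a1 lower with rfk siRNA (3.80%), although Cox7a1 passed the filter only through its tranylcypromine value. In the other 3 cases, lower with aof2 siRNA or tranylcypromine and higher with rfk siRNA, 0 subunits passed, against 2.88%, 4.77% and 3.92% of all genes. The highest of the 4 arrays exceeded the lowest by a median of 1.13-fold over the subunits and 1.31-fold over all tested genes, and in 57 of the 76 by less than 1.2-fold. Among the 1200 bright genes this median was 1.17-fold.

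The order of the 4 arrays needs no control. The tranylcypromine array was the highest of the 4 for 47 of the 76 subunits, against 27.7% of all genes and 38.2% of the 1200 bright genes. The aof2 siRNA array was highest for 12 (22.0% of all genes), the rfk siRNA array for 9 (25.1%) and the control array for 8 (25.2%). The lowest signal lay in the control array for 32 subunits (22.9% of all genes), in the rfk siRNA array for 30 (27.0%), in the aof2 siRNA array for 9 (22.1%) and in the tranylcypromine array for 5 (28.1%). Scaling decides part of this order: with the arrays centred on the hybridisation controls the rfk siRNA array was highest for 1 subunit, while the tranylcypromine array was highest for 34 to 59 under the 9 other settings tried. The order over all genes was not counted under these settings.

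**Figure D2:**
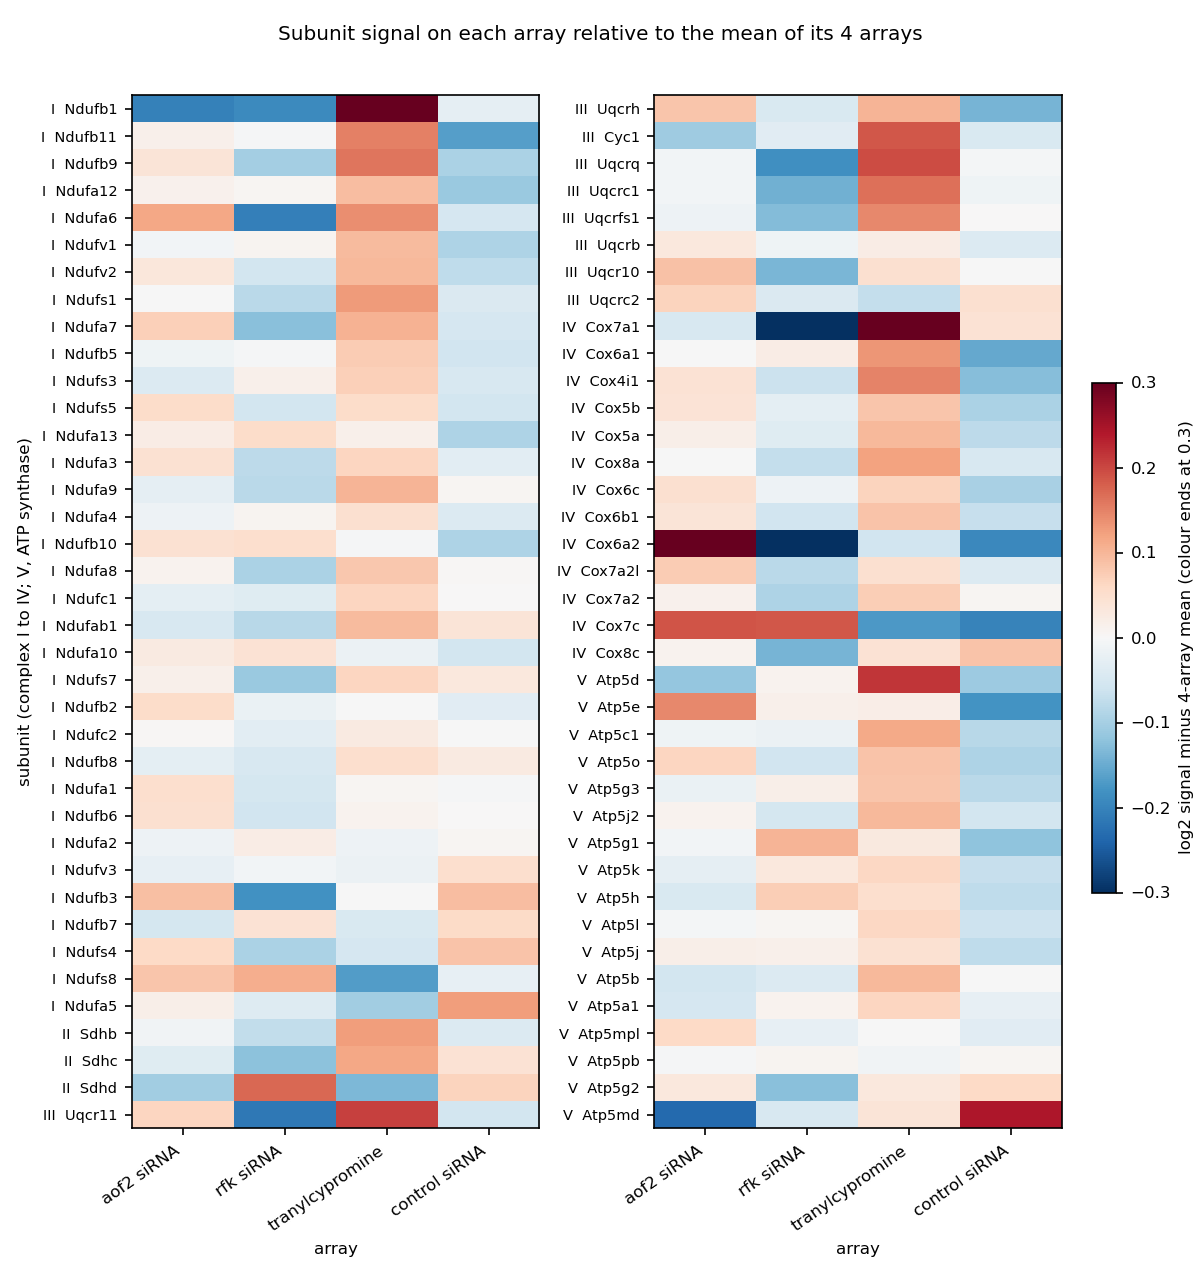
Colour shows the log2 signal of each of the 76 subunits on each array minus that subunit's mean over the 4 arrays, with subunits sorted by complex and then by the difference of tranylcypromine from control. The colour scale ends at 0.3, which Cox7a1, Cox6a2 and Ndufb1 exceed, and the tranylcypromine column is the highest of the 4 for 47 subunits.

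Of the 76 subunits 45 had several probe sets above the filter, which are annotated to the same gene but differ in signal. All of them lay above control in 20 subunits with aof2 siRNA, in 13 with rfk siRNA and in 28 with tranylcypromine, and all below it in 9, 14 and 5. They disagreed in sign in 16, 18 and 12. With tranylcypromine Atp5o, Ndufc2, Ndufs8 and Uqcrb disagreed between bright probe sets. In the other disagreements with the drug a dim probe set took part. That of Ndufb2, for example, had signals of 27.3 to 96.2, where the one used had 6708 to 7132. The gap between the probe sets of a subunit had a median of 0.10 with aof2 siRNA, 0.076 with rfk siRNA and 0.094 with tranylcypromine. This is larger than the median difference of the subunits with either siRNA (0.046 and 0.0012) and somewhat smaller than that with the drug (0.12).

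Promoter sequence was looked at because genes of the respiratory chain are known to be served by common factors: NRF1, the ETS factor GABP, YY1 and the estrogen-related receptors. In RefSeq's table of promoters (GRCm38.p6, 250 bases before to 50 after the start) 66 of the 82 subunits had an entry, with 71 promoters in all. The letters CGCANGCG, taken as an NRF1-type motif, were found on either strand in 26 of these 71, or 36.6%, against 17.6% of the promoters of all tested genes and 8.21% of all promoters. The ETS-type letters CCGGAAG were found in 23.9%, against 18.2% and 8.86%. The YY1-type letters AAGATGGC were found in 12.7%, against 4.61% and 2.75%, and the ERR-type letters AAGGTCA in 11.3%, against 2.87% and 4.72%. Matches of different motifs may overlap, and a match is a description of letters, not a site of binding. The median GC content was 58.3% in subunit promoters, 61.0% in those of tested genes and 52.7% in all.

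**Figure D3:**
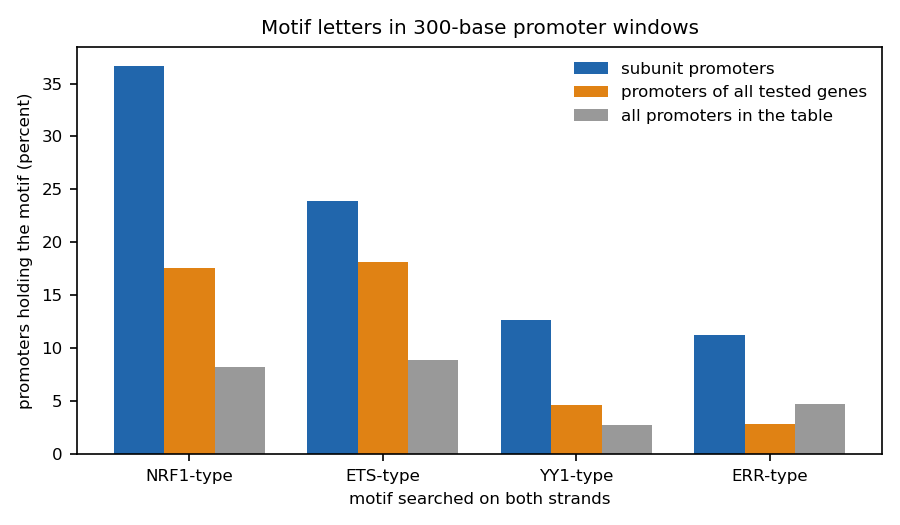
Percentage of 300-base promoter windows (vertical axis) that hold each motif on either strand, for subunits (71 promoters), all tested genes (11230) and all promoters in the RefSeq table (32851). Each of the 4 motifs has its tallest bar in the subunits, from 11.3% for the ERR-type to 36.6% for the NRF1-type letters.

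The 250 bases before the start are shown for a pair of subunits that stood above control with tranylcypromine (Cox6a1 and Ndufb11) and a pair that stood below it (Atp5md and Sdhd), so that their letters can be set side by side. All lie on the minus strand and are written 5′ to 3′: Cox6a1 at chr5:115348959-115349208, Ndufb11 at chrX:20617620-20617869, Atp5md at chr19:47090648-47090897 and Sdhd at chr9:50603850-50604099. Capitals mark matches to any of the 4 motifs on either strand.
Cox6a1: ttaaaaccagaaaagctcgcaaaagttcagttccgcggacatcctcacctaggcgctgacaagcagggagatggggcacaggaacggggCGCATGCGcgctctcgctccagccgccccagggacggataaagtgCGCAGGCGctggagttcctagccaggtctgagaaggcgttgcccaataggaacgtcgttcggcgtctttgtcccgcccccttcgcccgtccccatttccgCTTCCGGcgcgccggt
Ndufb11: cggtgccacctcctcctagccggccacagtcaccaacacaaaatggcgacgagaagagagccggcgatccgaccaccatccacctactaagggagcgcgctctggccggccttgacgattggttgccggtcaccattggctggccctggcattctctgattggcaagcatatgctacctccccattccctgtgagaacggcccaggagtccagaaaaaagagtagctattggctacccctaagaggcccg
Atp5md: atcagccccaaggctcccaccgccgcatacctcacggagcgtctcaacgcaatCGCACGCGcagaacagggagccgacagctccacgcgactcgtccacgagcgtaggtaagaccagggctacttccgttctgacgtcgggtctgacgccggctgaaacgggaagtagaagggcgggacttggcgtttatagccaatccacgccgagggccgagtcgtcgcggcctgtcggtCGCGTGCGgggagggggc
Sdhd: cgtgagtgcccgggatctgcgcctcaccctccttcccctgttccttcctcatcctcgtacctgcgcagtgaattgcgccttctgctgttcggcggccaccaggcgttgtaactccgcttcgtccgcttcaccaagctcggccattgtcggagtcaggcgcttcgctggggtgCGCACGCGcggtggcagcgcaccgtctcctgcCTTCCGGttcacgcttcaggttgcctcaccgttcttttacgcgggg
Cox6a1 held 2 NRF1-type matches and 1 ETS-type match, and Ndufb11 held 0 of either in this window. Atp5md held 2 NRF1-type matches and Sdhd 1 NRF1-type and 1 ETS-type match, so these letters were present on both sides of control in the drug-treated culture.

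Complex I, which takes electrons from NADH, had 34 subunits above the filter. Their median log2 difference was 0.043 with aof2 siRNA, -0.033 with rfk siRNA and 0.083 with tranylcypromine, with 22, 14 and 27 above control. These counts are 64.7%, 41.2% and 79.4%, against 49.3%, 48.5% and 48.0% of all genes and 54.2%, 57.9% and 61.2% of the bright ones. The 6 core subunits, which carry the redox centres or frame the quinone site, had medians of 0.064, 0.043 and 0.15, and the 28 accessory ones 0.036, -0.041 and 0.069. Their ranges overlapped in each comparison.

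The FMN-bearing subunit Ndufv1 was not lower with rfk siRNA on the deposited scale. It had signals of 5990 with aof2 siRNA, 6054 with rfk siRNA, 6435 with tranylcypromine and 5646 with control siRNA. All 3 treated arrays were above control, by 0.09, 0.10 and 0.19 on the log2 scale. With the siRNAs these differences are near the means of the hybridisation controls (0.08 with aof2 siRNA and 0.11 with rfk siRNA), so their sign depends on the scaling. Its iron-sulfur partner Ndufv2 had 10224, 9625 and 10690 in the same 3 arrays and 9474 in control, and Ndufs1, the largest core subunit, had 2637, 2498 and 2883, against 2561 in control. Both were highest with tranylcypromine.

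Ndufs8, a core iron-sulfur subunit, depends on the probe set. The one used gave signals of 8315 with aof2 siRNA, 8471 with rfk siRNA, 6987 with tranylcypromine and 7712 with control siRNA, so that tranylcypromine was lowest (log2 difference -0.14). Its 6 probe sets ranged from -0.14 to 0.57 with tranylcypromine, and only the one used was below control. Its direction with the drug is therefore not settled.

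Among accessory subunits Ndufb11, a part of the membrane arm encoded on the X chromosome, had signals of 12974 with aof2 siRNA, 12810 with rfk siRNA, 14262 with tranylcypromine and 11441 with control siRNA. Control was the lowest array. Over its 3 probe sets the log2 difference was 0.18 to 0.33 with aof2 siRNA, 0.16 to 0.20 with rfk siRNA and 0.32 to 0.42 with tranylcypromine. Ndufb1, a small membrane arm subunit, had 185, 186 and 285, against 208 in control. It was the complex I subunit furthest above control with tranylcypromine (0.45), from 1 probe set of low signal. Ndufb9, also of the membrane arm, stood at 0.26 with the drug and at 0.13 and -0.01 with the siRNAs.

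Ndufa5, an accessory subunit of the arm that faces the matrix, ran the other way. It had 6887 with aof2 siRNA, 6629 with rfk siRNA, 6335 with tranylcypromine and 7431 with control siRNA, and control was highest. Its log2 difference of -0.23 was the lowest of the 76 with tranylcypromine, and its other probe set gave -0.22. Ndufb3, of the membrane arm, had 4250 with aof2 siRNA, 3521 with rfk siRNA and 3984 with tranylcypromine, against 4252 in control, so that only the siRNA against Rfk set it apart by 1.2-fold (-0.27). Ndufs4, whose loss causes a severe mitochondrial disease in humans, stood at -0.03, -0.18 and -0.14, but its 4 probe sets spanned -0.33 to 0.36, -0.18 to 0.29 and -0.19 to 0.09.

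Ndufa4, named as a complex I protein but now known as a part of complex IV, had 17500 with aof2 siRNA, 17769 with rfk siRNA and 18281 with tranylcypromine, against 17172 in control. Counting it in complex IV left the median of that complex with tranylcypromine at 0.16. Its paralogue Ndufa4l2, which is induced by low oxygen, was below the filter with 18.2, 38.2 and 65.8, against 26.7 in control. Ndufb4 also fell below the filter, with 24.8, 39.4 and 20.1, against 41.4. At such signals the differences are not read.

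**Figure D4:**
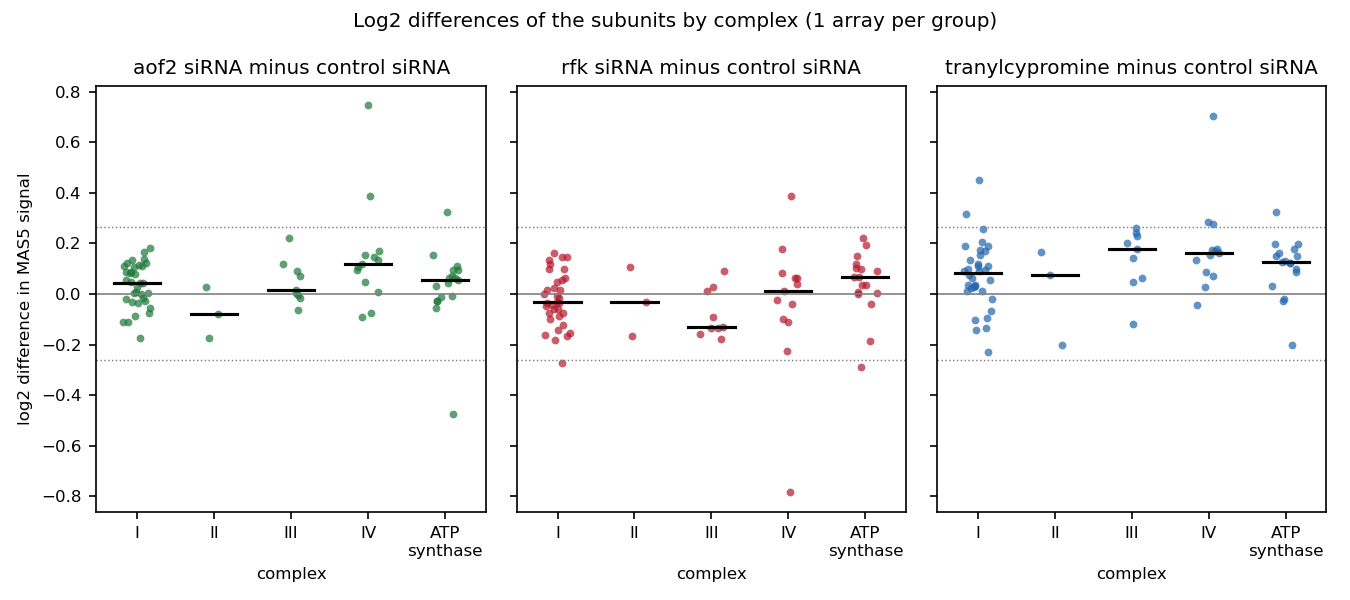
Each point is 1 subunit's log2 difference from control (vertical axis) by complex (horizontal axis) in the 3 comparisons. Black bars are medians and dotted lines mark 1.2-fold. With tranylcypromine the medians of all 5 complexes lie above 0 (0.083, 0.074, 0.18, 0.16 and 0.13), whereas with rfk siRNA that of complex III lies at -0.13 and that of ATP synthase at 0.067.

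Complex II, which oxidises succinate, was represented by Sdhb, Sdhc and Sdhd. Sdhb, the iron-sulfur subunit, had 6077 with aof2 siRNA, 5821 with rfk siRNA, 6684 with tranylcypromine and 5955 with control siRNA. Sdhc, a membrane anchor, had 2089, 1967 and 2322, against 2206 in control. Both were lowest with rfk siRNA and highest with tranylcypromine.
The other anchor, Sdhd, showed the opposite order, with 3970 with aof2 siRNA, 4812 with rfk siRNA, 3886 with tranylcypromine and 4473 with control siRNA. Its log2 differences were -0.17, 0.11 and -0.20, and both of its probe sets had these signs. Sdha, the FAD-bearing subunit, which was not among the 82, had 4000, 3964 and 4334, against 4127 in control, or -0.05, -0.06 and 0.07 on the log2 scale. Its other probe set had the opposite sign with aof2 siRNA (0.07) and with tranylcypromine (-0.05).

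Complex III, which hands electrons from ubiquinol to cytochrome c, was the complex with the lowest median with rfk siRNA and the highest with tranylcypromine. Its 9 subunits had medians of 0.017 with aof2 siRNA, -0.13 with rfk siRNA and 0.18 with tranylcypromine, with 6, 3 and 8 above control. Of all genes 49.3%, 48.5% and 48.0% were above control, and of the bright ones 54.2%, 57.9% and 61.2%. The rfk siRNA array was the lowest of the 4 for 5 of the 9 subunits (27.0% of all genes). Without probe sets that can match several transcripts the rfk siRNA median was -0.0062 and that with tranylcypromine 0.23. That setting drops Uqcrc1 and Uqcrc2 and moves Uqcr10 and Uqcrq to dim probe sets, with signals of 52.3 to 71.3 and 54.6 to 86.8.

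Uqcr11, a small accessory subunit, had 8346 with aof2 siRNA, 6879 with rfk siRNA, 9210 with tranylcypromine and 7684 with control siRNA. The rfk siRNA array was the lowest and the tranylcypromine array the highest. The same held for Uqcrq, also a small accessory subunit, with 6617, 5857 and 7618, against 6630 in control, and for Uqcrc1, a core protein, with 7747, 7052 and 8732, against 7720 in control. It also held for Uqcrfs1, the Rieske iron-sulfur protein, with 4660, 4298 and 5197, against 4713 in control. The log2 differences of these 4 ranged from -0.18 to -0.13 with rfk siRNA and from 0.14 to 0.26 with tranylcypromine.

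Cyc1, which carries the haem of cytochrome c1, had 6268 with aof2 siRNA, 6594 with rfk siRNA, 7678 with tranylcypromine and 6543 with control siRNA, so that only the drug-treated culture stood off. Uqcrh, the hinge protein, had 10673, 9755 and 10813, against 9155 in control, and was above control in all 3 (0.22, 0.09 and 0.24). Uqcrc2, the other core protein, was the exception below control with the drug, with 7510, 6962 and 6827, against 7421 in control. Uqcrb had 27557, 26753 and 27386, against 26242, and its other probe set was below control with tranylcypromine (-0.19). Uqcr10 stood at 0.09, -0.14 and 0.05, and its 3 probe sets spanned -0.52 to 0.25 with aof2 siRNA and -0.14 to 0.45 with rfk siRNA.

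Complex IV, cytochrome c oxidase, had 13 subunits above the filter, with medians of 0.12 with aof2 siRNA, 0.012 with rfk siRNA and 0.16 with tranylcypromine, and 11, 7 and 12 above control. Of all genes 49.3%, 48.5% and 48.0% were above control, and of the bright ones 54.2%, 57.9% and 61.2%. The share of the complex with rfk siRNA (53.8%) lay near these. Without probe sets that can match several transcripts the medians were 0.018 with aof2 siRNA and -0.13 with rfk siRNA. That setting drops the bright Cox4i1, Cox6a1 and Cox7a2l and moves Cox5b to a probe set with signals of 51.3 to 68.7. Cox7c moves to one of 38.0 to 74.6. Together with Cox6a2, Cox7a1 and Cox8c, low signals thus weigh more in these medians. Its nuclear subunits surround a catalytic core made in the mitochondrion, and several have paralogues used by particular tissues. Cox4i1, the common form of subunit 4, had 14612 with aof2 siRNA, 13559 with rfk siRNA, 15708 with tranylcypromine and 12971 with control siRNA. Cox6a1, the common form of subunit 6a, had 23049, 23442 and 25267, against 20737 in control. For both, control was the lowest array and tranylcypromine the highest, with differences of 0.28 and 0.29 for the drug. Its other probe set gave 0.19 for Cox6a1.

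Cox5a, Cox5b, Cox6b1 and Cox6c had the same order of ends, control lowest and tranylcypromine highest, with log2 differences of 0.10 to 0.14 for aof2 siRNA, 0.01 to 0.08 for rfk siRNA and 0.15 to 0.18 for tranylcypromine. Of the 5 probe sets of Cox5b, a dim one close to the filter, with signals of 51.3 to 68.7, gave -0.42 with tranylcypromine. The others, all bright, gave 0.18 to 0.36. Cox8a, the common form of subunit 8, stood at 0.05, -0.03 and 0.17. Cox7a2, the common form of subunit 7a, stood at 0.01, -0.10 and 0.07, and Cox7a2l, which joins complexes III and IV into supercomplexes, at 0.12, -0.04 and 0.09. These last 3 were lowest with rfk siRNA.

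The paralogues of heart, muscle and brown fat gave low signals. Cox7a1, the muscle and brown fat form of subunit 7a, had 56.8 with aof2 siRNA, 35.05 with rfk siRNA, 98.4 with tranylcypromine and 60.4 with control siRNA. The highest and lowest arrays differed by 2.81-fold, in 1 probe set close to the filter. Cox7a1 passed the filter of 50.9 only through the tranylcypromine array, since its mean signal over the other 3 arrays was 49.3, so its spread and its place among the genes past 1.5-fold follow in part from that selection. Cox6a2, the muscle form of subunit 6a, had 121, 67.0 and 79.5, against 72.4 in control, and only aof2 siRNA set it apart (0.75). Of the other brown fat and muscle markers, Ucp1, Cidea, Dio2, Zic1, Cox8b, Myog and Acta1 were below the filter. The muscle genes Ckm and Des passed it, Ckm with 40.8 with aof2 siRNA, 140 with rfk siRNA and 77.5 with tranylcypromine, against 71.4 in control, and Des with 25.7, 96.0 and 80.6, against 88.3. Both were lowest with aof2 siRNA, where Cox6a2 was highest.

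Cox4i2, a form of subunit 4 found in lung and induced by low oxygen, was below the filter, with 40.5 with aof2 siRNA, 40.4 with rfk siRNA, 38.7 with tranylcypromine and 13.6 with control siRNA. Cox6b2 and Cox8b, forms found in testis and in muscle and brown fat, and Cox7b2 were also below it, with signals of 1.28 to 40.0. Cox8c, a further form of subunit 8, passed with 213, 192 and 218, against 225 in control, which was highest.
Cox7c passed only through dim probe sets, with 191 with aof2 siRNA, 190 with rfk siRNA and 149 with tranylcypromine, against 146 in control. Its other probe set gave -0.97 with aof2 siRNA, -0.15 with rfk siRNA and -0.80 with tranylcypromine, where the first gave 0.39, 0.39 and 0.03, so no direction can be given.

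ATP synthase had 17 subunits above the filter, with medians of 0.055 with aof2 siRNA, 0.067 with rfk siRNA and 0.13 with tranylcypromine, and 11, 14 and 14 above control. Of all genes 49.3%, 48.5% and 48.0% were above control, and of the bright ones 54.2%, 57.9% and 61.2%. The control array was the lowest of the 4 for 11 of the 17 subunits (22.9% of all genes). By position, the 5 subunits of the F1 head, where ATP is made, had medians of -0.0078, 0.067 and 0.20. The 4 of the peripheral stalk, which holds the head still, had 0.062, 0.064 and 0.12, and the 8 of the membrane part 0.058, 0.038 and 0.13.

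In the head, the catalytic subunit gene Atp5b had 15079 with aof2 siRNA, 15222 with rfk siRNA, 16762 with tranylcypromine and 15661 with control siRNA. Atp5a1, the other large subunit of the head, had 11001, 11482 and 11911, against 11201 in control. Both were highest with the drug, by 0.10 and 0.09, and the probe sets of Atp5a1 spanned -0.43 to 0.12 with rfk siRNA. Atp5c1, the rotating gamma subunit, stood at 0.07, 0.07 and 0.20.

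Atp5d, the delta subunit of the rotor, had 8810 with aof2 siRNA, 9621 with rfk siRNA, 11084 with tranylcypromine and 8858 with control siRNA. The drug-treated culture was highest, and its log2 difference of 0.32 (0.34 in the other probe set) was the largest of the 17 with tranylcypromine. Atp5e, the epsilon subunit, had 7406, 6774 and 6794, against 5917 in control, and was highest with aof2 siRNA (0.32).

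In the stalk, Atp5pb, the b subunit, had 15053 with aof2 siRNA, 15198 with rfk siRNA, 14981 with tranylcypromine and 15173 with control siRNA, which is 1.01-fold between the ends in the probe set used. Its other probe set was below control in all 3 comparisons, by log2 differences of -0.23, -0.13 and -0.19. Atp5o, the OSCP subunit that joins stalk and head, stood at 0.16, 0.04 and 0.18, but its other probe set gave 0.0043, 0.078 and -0.097, so its direction with tranylcypromine is not settled. In the probe sets used, Atp5h stood at 0.03, 0.15 and 0.13, and Atp5j at 0.09, 0.09 and 0.12. The highest array was tranylcypromine for Atp5j and rfk siRNA for Atp5h.

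In the membrane part, Atp5md, a small protein also known as DAPIT that helps to stabilise the enzyme, was the ATP synthase gene furthest below control. It had 7187 with aof2 siRNA, 8180 with rfk siRNA, 8688 with tranylcypromine and 10000 with control siRNA. Control was the highest array, and the log2 differences were -0.48, -0.29 and -0.20, all from 1 probe set.

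The proton-carrying ring of subunit c is encoded by 3 genes, Atp5g1, Atp5g2 and Atp5g3, which in mammals give the same mature protein. Atp5g1 had 5437 with aof2 siRNA, 5866 with rfk siRNA and 5578 with tranylcypromine, against 5031 in control. Atp5g2 had 9380, 8413 and 9384, against 9565 in control, and Atp5g3 had 17390, 17853 and 18664, against 16664 in control. With rfk siRNA Atp5g1 was therefore the highest of its 4 values and Atp5g2 the lowest (0.22 and -0.19), although a dimmer probe set of Atp5g2 gave 0.29. The other membrane subunits Atp5j2, Atp5k, Atp5l and Atp5mpl stood between 0.03 and 0.15 with tranylcypromine.

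**Figure D5:**
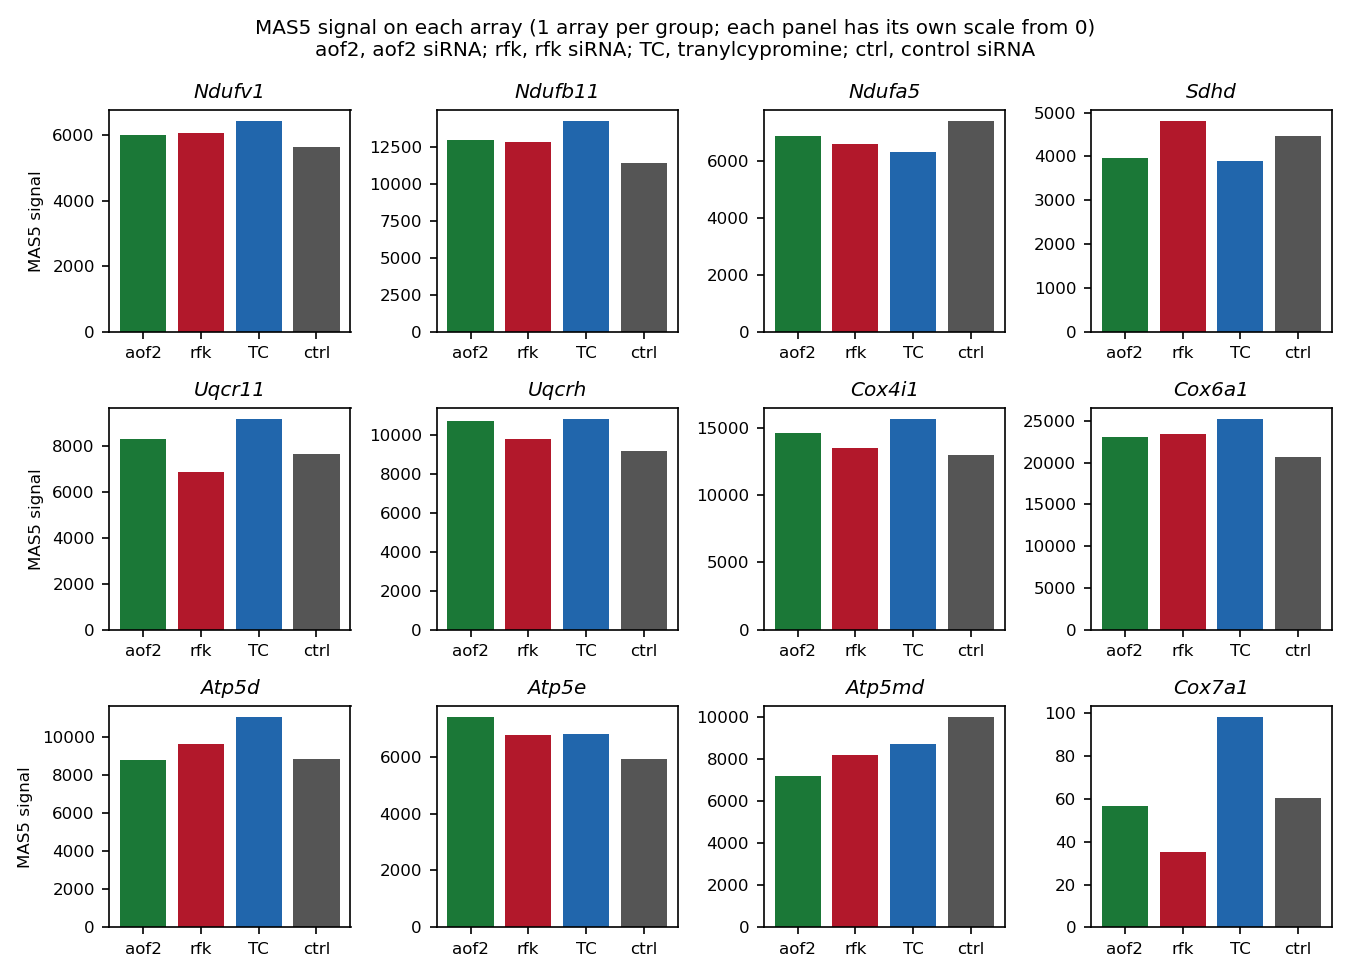
MAS5 signal (vertical axis, from 0 and on its own scale in each panel) on the 4 arrays (horizontal axis, 1 bar per array) for 12 subunits. Ndufb11, Uqcr11, Cox4i1, Cox6a1 and Atp5d are tallest with tranylcypromine, Ndufa5 and Atp5md are tallest in control, and Sdhd is tallest with rfk siRNA.

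Genes that serve the same complexes were set beside the subunits. Of 47 assembly factors, which build the complexes without staying in them, 43 passed the filter, with medians of 0.0090 with aof2 siRNA, -0.063 with rfk siRNA and -0.0074 with tranylcypromine, and 22, 19 and 20 above control, against 49.3%, 48.5% and 48.0% of all genes. With the drug their median lay near that of all genes (-0.016), and that of the subunits was 0.12. These groups were not matched for signal. The mean signals of the subunits had a median of 8369, and every assembly factor but Uqcc2 lay under that. Bright genes as a class had a median of 0.050 with the drug. The part of signal in this contrast was not tested. At least 1.2-fold higher were 4, 5 and 7, against 19.5%, 15.1% and 20.5% of all genes, and lower 0, 9 and 7, against 15.7%, 16.2% and 20.1%.

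Past 1.5-fold were Coa4 (0.61) with aof2 siRNA, Sco2 (0.89) with rfk siRNA and Sdhaf1 (0.76) with tranylcypromine, each from 1 probe set. Coa4 lay close to the filter of 50.9, with 79.4 with aof2 siRNA, 59.1 with rfk siRNA and 68.5 with tranylcypromine, against 52.0 in control. Its differences are therefore uncertain. Sdhaf1, which inserts iron-sulfur clusters into Sdhb, had 889 with aof2 siRNA, 970 with rfk siRNA and 1448 with tranylcypromine, against 855 in control. Sco2, a copper chaperone of complex IV and a known p53 target, had 346, 568 and 265, against 307 in control. Of the complex I factors with the drug, Acad9 (0.29) and Ndufaf6 (0.22) were highest and Ndufaf2 (-0.46) and Tmem126b (-0.40) lowest. Of the complex IV factors, Coa4 (0.40) and Surf1 (0.27) were highest and Cox15 (-0.48) and Cox20 (-0.36) lowest, and the probe sets of Cox15 ranged up to 0.10.

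Genes for proteins that feed or serve the chain were also followed: all 7 of Cycs, the adenine nucleotide carriers Slc25a4 and Slc25a5, the phosphate carrier Slc25a3 and the outer membrane channels Vdac1, Vdac2 and Vdac3 were above control with tranylcypromine, against 4 with aof2 siRNA and 3 with rfk siRNA. Of all genes 48.0% were above control with the drug, and of the bright ones 61.2%. With aof2 siRNA these shares were 49.3% and 54.2%, and with rfk siRNA 48.5% and 57.9%. Other probe sets went below control with the drug for Slc25a3 (-0.68), Cycs (-0.11) and Slc25a4 (-0.02). The medians of the 7 were 0.061, -0.0033 and 0.18. Cycs, which is cytochrome c itself, was level, with 20315, 21121 and 21572, against 21417 in control. None of the 13 mitochondrially encoded genes sought was found on the array under its mt- symbol (such as mt-Nd1), and other spellings were not sought.

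Of 11 regulators of respiratory genes 10 passed the filter, with medians of -0.024, 0.044 and -0.0095. Ppargc1a, the coactivator PGC-1 alpha, had 207 with aof2 siRNA, 288 with rfk siRNA and 350 with tranylcypromine, against 91.02 in control. It was above control in all 3, whereas the subunit medians were 0.046, 0.0012 and 0.12. Esrra, the estrogen-related receptor alpha, had 584, 465 and 697, against 458, but its other probe set gave -2.93 with tranylcypromine, so the direction is not settled. Nrf1 (-0.17, 0.04 and 0.08), Gabpa (0.16, 0.37 and 0.20), Gabpb1 (-0.51, 0.02 and -0.35), Tfam (-0.24, 0.03 and -0.25) and Yy1 (-0.07, 0.09 and -0.02) were all nearer to control than Ppargc1a in each comparison (1.18, 1.66 and 1.94).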

How the data were processed

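RNA of 4 cultures was measured on 1 Affymetrix 3' array each (250 ng total RNA, biotin-labelled, per the labels). The deposited values are linear MAS5 intensities per probe set, made by the authors with MAS5 per the submitters' processing notes. Not given in the sources used here are its version, its scaling target and any detection call. The trimmed mean (2% off each end) was 500.003 on each array, so the authors had scaled the intensity values. Equal means hide differences in RNA per cell.

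No offset was added before log2. The platform annotation gave 1 symbol for 34958 of 45101 probe sets, several for 932 (not used) and none here for 9211. Of the 34958, gene IDs of 34754 were in RefSeq's table for GRCm38.p6, and 0 symbols changed. Differences are treated minus control, with thresholds of 1.2-fold and 1.5-fold. On simulated arrays with shifts of known size, the differences returned those shifts. That run checks the arithmetic and cannot test the scaling, the filter or the choice of probe sets. Signals of different probe sets are not compared as amounts of transcript.

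Members and lists were chosen with earlier results of these data known. The text names the 3 highest and 3 lowest subunits per comparison, those past 1.5-fold, paralogues, subunits below the filter and the highest by signal of each complex, and others to show each complex. From the supporting lists it names genes past 1.5-fold and, for tranylcypromine, the ends of the larger lists. Alternatives were 3 other scalings, an offset of 50, no filter or the 75th percentile as filter, the mean of all probe sets, a 1.5-fold threshold, each array set against the average of the 3 others, Ndufa4 moved to complex IV, and leaving out probe sets that can match several transcripts. Seeing the data led to 1 more, a filter at a log2 signal of 12. The tools were Python 3.11.15, NumPy 2.4.6, pandas 2.3.3 and matplotlib 3.10.9.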

Additional observations from a re-analysis of the deposited data

How the results depend on the processing

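Over 31 results and 318 recomputed values, 249 stayed near the main value and 69 moved, where a median moved if it shifted by more than the SD of the hybridisation controls in that comparison (0.076 with aof2 siRNA, 0.072 with rfk siRNA, 0.12 with tranylcypromine) and a count if it changed by over 1.5 times. The SD for tranylcypromine is larger than the median of all subunits with the drug (0.118 against 0.115) and those of complexes I and II, so this measure cannot show that they are stable. Centring shifts all medians of a comparison by the same constant, so they move or stay together. The tally therefore does not count separate checks. The median of all 76 subunits with the drug ranged from 0.053, centred on the median, to 0.12, and those of complexes I, III and IV and ATP synthase were above 0 in all alternatives run. That of complex II, 3 genes, ranged from -0.018 to 0.16. Medians with the siRNAs took either sign in many cases. That of all subunits with aof2 siRNA changed sign only under the 2 centrings, which shift every gene of an array alike. For the other cases the cause was not tested.

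Scaling: centred on the median, the aof2 siRNA medians were -0.030 for all subunits, -0.033, -0.16, -0.059 and 0.041 for complexes I to IV and -0.021 for ATP synthase, with 31 subunits above control. With tranylcypromine 2 were then 1.2-fold higher and 3 lower, and aof2 siRNA, rfk siRNA and control were highest for 6, 16 and 17. This centring moved the median of all genes to -0.081, -0.013 and -0.078. Quantile normalization gave 2 subunits 1.2-fold higher with tranylcypromine and 16 highest in control. Centred on the hybridisation controls, which moved the median of all genes to -0.085, -0.12 and -0.027, the aof2 siRNA medians were -0.034 for all, -0.037, -0.16, -0.063 and 0.037 for complexes I to IV and -0.026 for ATP synthase, with 30 above control. Those with rfk siRNA were -0.11 for all, -0.14, -0.14, -0.24 and -0.095 for complexes I to IV and -0.040 for ATP synthase, with 11 above control and 11 lower by 1.2-fold, and aof2 siRNA, rfk siRNA and control were highest for 3, 1 and 13.

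Signal and probe sets: without a filter, 5 subunits were 1.2-fold higher and 3 lower with aof2 siRNA, 5 higher with rfk siRNA, and 11 higher and 1 lower with tranylcypromine. With the filter at the 75th percentile 1 was higher with aof2 siRNA and 0 with rfk siRNA. The mean of all probe sets gave 7 higher and 3 lower with aof2 siRNA, 4 and 9 with rfk siRNA, and 10 and 2 with tranylcypromine. Without probe sets that can match several transcripts 58 subunits remained in the count. Some, among them Cox5b, Cox7c, Uqcr10 and Uqcrq, were then read from dim probe sets. The complex IV medians were then 0.018 with aof2 siRNA and -0.13 with rfk siRNA and that of complex III -0.0062 with rfk siRNA, with 33 above control and 5 lower by 1.2-fold with aof2 siRNA, 3 higher and 5 lower with rfk siRNA, 3 lower with tranylcypromine, and aof2 siRNA and rfk siRNA highest for 6 and 5. With the filter at a log2 signal of 12, added after the data were seen, 1 was higher with aof2 siRNA, 0 higher and 1 lower with rfk siRNA, and 5 were highest in control.

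Reference and threshold: against the mean of the 3 other arrays, 1 was 1.2-fold higher and 2 lower with aof2 siRNA. With rfk siRNA 23 lay above that mean, 0 were 1.2-fold higher, and the complex IV median was -0.085. At 1.5-fold, 1 was higher and 0 lower with aof2 siRNA, 0 higher and 1 lower with rfk siRNA, and 1 higher with tranylcypromine. No paired analysis was possible because each group has 1 array. With 1 array per group, signal near the filter (Cox7a1, Cox6a2, Cox7c and the assembly factor Coa4) limits what can be read.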
